A study of Mus musculus with 21 samples.

Results

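The genes examined were the 10 named members of the DNA replication licensing machinery: the helicase subunits Mcm2, Mcm3, Mcm4, Mcm5, Mcm6 and Mcm7, the helicase-associated factor Mcm10, the loading factors Cdc6 and Cdt1, and the origin-binding subunit Orc1. They were chosen by name, all 10 belong to the 19304 protein-coding genes no shorter than 2 kb, and all were among the 9514 genes that passed the filter of a mean cover of at least 5% over the wild-type libraries. The value measured was the mark H3K36me3, trimethylation of lysine 36 of histone H3, as chromatin immunoprecipitation followed by sequencing (ChIP-seq) shows it. For each library the value of a gene is its cover, the percent of its body that lies inside called peaks, so a value of 100% means that the whole gene was under peaks. A difference between groups is given in percentage points of cover.

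The cells were C2C12, a mouse myoblast line that fuses into muscle fibres in culture. Wild-type (WT) cells had 2 libraries in each of 5 conditions, which were day 0, day 1 and day 5 in control medium, and day 1 and day 5 under methionine restriction. Each of 2 lines that the labels call Setd2 knockouts (KO) had 1 library in each of these conditions, so values of a KO line have no replicate. The labels do not say whether the 2 WT libraries of a condition came from separate cultures, so p-values measure the spread between these libraries, which may be technical. The methionine level of the restricted medium, the allele and the clonal origin of the KO lines are not given in the sources used here. Because cells were assayed in bulk, fewer cells that carry the mark and less mark per cell cannot be told apart.

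Origin licensing happens in the G1 phase, when the origin recognition complex, of which ORC1 is a subunit, recruits CDC6 and CDT1, and these load a ring of the MCM subunits 2 to 7 onto DNA. The ring is the core of the helicase that unwinds DNA in S phase, and MCM10 takes part in its activation. Cells that leave the cycle, as myoblasts do when they fuse into myotubes, are known to shut down many of these genes, largely through E2F and RB family proteins. SETD2 is the enzyme that lays H3K36me3 over the bodies of transcribed genes, and methionine supplies the methyl groups through S-adenosylmethionine.

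The upstream sequences of the members are shown because the E2F family acts there. E2F words were searched on both strands in the 250 bases before each RefSeq start on GRCm38.p6, spelled TTTCCCGC, TTTGGCGC, TTTCGCGC and TTTGCCGC, where overlapping matches count separately. The table held promoters for 9 of the 10 members, Mcm4 being the exception. Matches stood before Mcm5 (2), Mcm6 (3), Mcm7 (1), Cdc6 (1) and Orc1 (1), and no such word was in the windows of Mcm2, Mcm3, Mcm10 and Cdt1. Of all 32851 promoter windows of that length, 1.86% held a match. The bases upstream of the annotated gene bodies of Mcm5 (plus strand, chr8:75109259-75109467) and Mcm6 (minus strand, chr1:128359706-128359955) were as follows, 5′ to 3′ along the gene, with the E2F words in capitals.
Mcm5: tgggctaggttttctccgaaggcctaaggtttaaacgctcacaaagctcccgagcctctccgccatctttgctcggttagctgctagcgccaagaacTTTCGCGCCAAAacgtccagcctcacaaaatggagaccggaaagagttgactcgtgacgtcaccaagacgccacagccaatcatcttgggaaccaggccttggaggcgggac
Mcm6: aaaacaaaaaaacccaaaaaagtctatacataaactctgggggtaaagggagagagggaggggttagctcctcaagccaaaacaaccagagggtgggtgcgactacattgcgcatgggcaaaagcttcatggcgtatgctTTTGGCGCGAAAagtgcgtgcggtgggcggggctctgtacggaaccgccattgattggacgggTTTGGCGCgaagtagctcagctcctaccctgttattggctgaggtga

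The starts of Mcm5, Cdc6, Orc1 and of both Mcm7 promoters lie inside the annotated bodies of these genes. For Mcm5 the bases above therefore stop where the body begins. The matches of Cdc6, Orc1 and Mcm7 lie inside the bodies, so only the 28 bases around each match are given, with the word again in capitals. They are at chr11:98908003-98908030 (plus strand) for Cdc6, chr4:108579417-108579444 (plus strand) for Orc1 and chr5:138172031-138172058 (minus strand) for Mcm7, on GRCm38.p6.
Cdc6: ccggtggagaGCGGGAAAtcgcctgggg
Orc1: tcggttagtgGCGCGAAAagttttctcc
Mcm7: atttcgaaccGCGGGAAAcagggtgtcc

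The capitals in these 3 windows are words of the opposite strand. A match is a description of letters and not a shown binding site. Among the 9 members with a known strand, only Orc1 had a WT peak that crossed the annotated start, where it overlaps Prpf38a.

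As facts of the whole series, WT libraries had 63423 to 87398 peaks, and peak lists carry no read depth, so the depth behind each value is unknown. Loss of Setd2 cannot be read from peaks, which only show the mark on that gene: the cover of Setd2 was 45.6% to 82.8% over the 10 WT libraries, 0 to 24.0% in KO line 1 and 0 in all 5 libraries of KO line 2. Of 6 listed myoblast markers, 5 had means of 50.6% (Vcam1) to 93.9% (Itga7) at day 0, with Myod1 at 52.6%. The other, Myf5, had 11.9% at day 0 and failed the filter of a mean cover of at least 5%. The 15 markers of blood, endothelium, epithelium, nerve and fat were all at 0 in 8 of 10 WT libraries, and the highest value in the others was 0.438%. The summed cover of the 9 measured myotube markers, out of 10 listed, rose from between 61.9 and 82.4 points at day 0 to between 768 and 794 at day 5 in control medium, and was 294 to 323 at day 5 under restriction. The day 0 sum was nearly all Ttn, at a mean of 71.3%. Under restriction at day 5 the highest means were those of Ttn (93.5%), Neb (82.8%) and Myh3 (57.3%), and Myog and Tnnc2 were at 0.

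At day 0 the licensing genes carried long stretches of the mark. In WT all 10 members had at least 50% cover in both day 0 libraries, and the median member was at 90.5% and 86.2%, against 57.2% and 52.9% for the median of all tested genes. By day 5 in control medium only 3 members in the first library and 1 in the second had at least 50% cover, and the median member was at 29.2% and 18.8% while the median of all tested genes stayed at 54.7% and 50.6%. Under restriction at day 5 the count was 5 members in both libraries, with a median member at 50.3% and 52.6%, although the median of all tested genes was only 35.5% and 36.4%. So the median member stood above the median gene at day 0, below it at day 5 in control medium, and above it at day 5 under restriction. Single members departed from this: Mcm7 in both libraries and Mcm6 in the first were above the median gene at day 5 in control medium, Orc1 was just below it in the second day 0 library, and Mcm10, Cdc6, Cdt1 and Orc1 were below it under restriction.

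**Figure D1:**
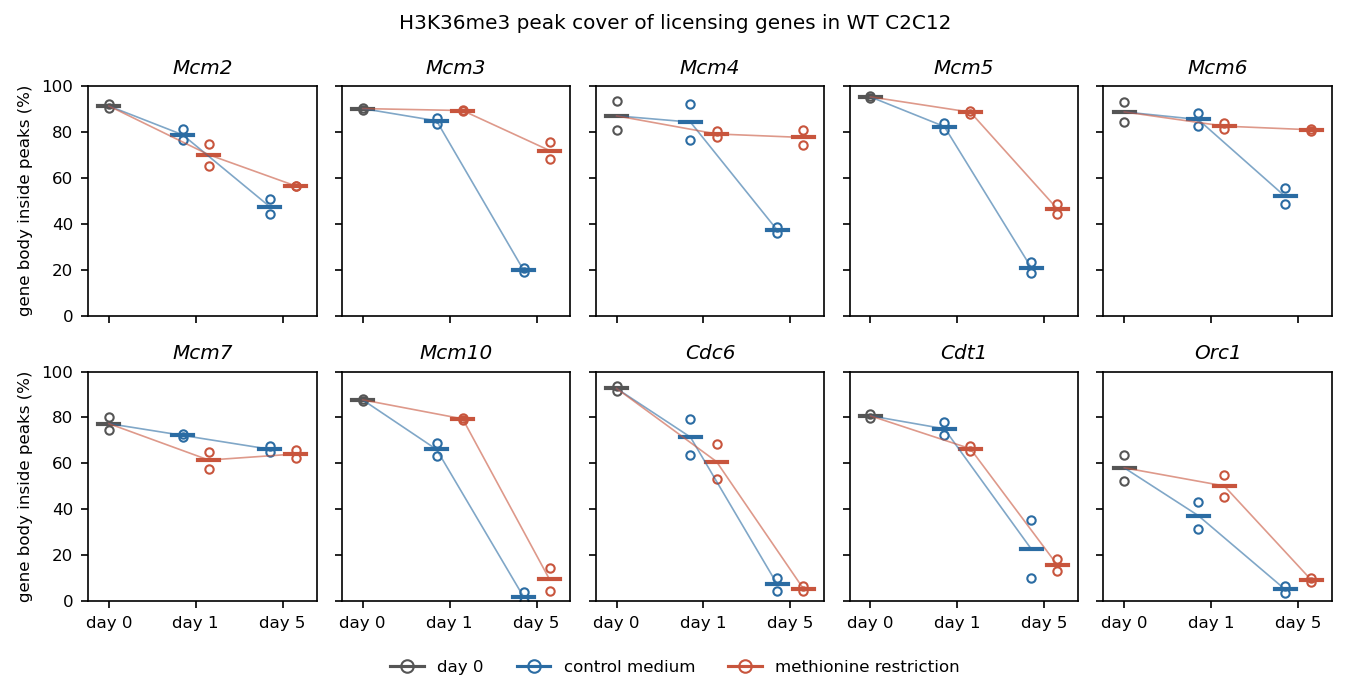
Cover of each member in the WT libraries, in percent of the gene body inside peaks, by day (days are spaced evenly, not to scale). Open circles are libraries, bars are means of 2 libraries, and lines join the means; all members except Mcm7 lie 36.8 to 85.8 points lower at day 5 in control medium than at day 0, and Mcm3, Mcm4, Mcm5 and Mcm6 lie higher under restriction.

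Between day 0 and day 5 in control medium 9 of the 10 members lost cover and 0 gained it (limma, Benjamini-Hochberg (BH) adjusted p under 0.05 over all tested genes). Over all tested genes 15.6% were called with less cover in this comparison and 12.2% with more, and with libraries centred on the median gene 1298 of 9514 had less and 1615 more. The median difference was −55.49 points for the members and −1.17 points for all tested genes. The gene that was not called was Mcm7. Its difference was −11.2 ± 3.76 points (SE), with an adjusted p of 0.0588 in limma.

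The ring subunits are described first. Mcm3, which pairs with MCM5 at one interface of the ring, has a body of 17.3 kb at chr1:20802966-20820312. Its cover was 90.6% and 89.8% in the 2 WT libraries of day 0. At day 1 it was 83.6% and 86.0% in control medium and 89.4% and 89.2% under restriction. At day 5 it was 20.6% and 19.1% in control medium and 75.7% and 68.1% under restriction. Both control libraries of day 5 were thus far below every other WT library, and the media did not overlap at either day. The loss from day 0 to day 5 in control medium was −70.4 ± 3.29 points (SE, limma adjusted p = 2.29e-06). The difference between the media at day 5 was 52.1 ± 3.29 points (SE, limma adjusted p = 1.64e-05), the largest of the 10 members. With only peaks of a −log10 q of at least 3 it was 30.8 points and still called, below Mcm6, Mcm4 and Mcm2, and with lists of equal covered length it was below Mcm6.

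Mcm4 lies at chr16:15623897-15637400, and the body of Prkdc lies 0.043 kb from it. Its cover at day 0 was 93.3% and 80.7%. Day 1 values were 76.5% and 92.1% in control medium and 77.8% and 80.4% under restriction. Day 5 values were 35.8% and 38.5% in control medium and 74.4% and 80.7% under restriction. The day 1 control libraries overlapped with day 0, the restricted day 1 libraries lay just below both day 0 libraries, and the day 5 control libraries lay below all the others. The day 5 media differed by 40.4 ± 5.81 points (SE, limma adjusted p = 0.000784). Against day 0, restricted day 5 libraries were 9.43 points lower with an adjusted p of 0.214 in limma, so no loss was called.

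Mcm6 is the longest ring subunit gene here, 28.1 kb at chr1:128331575-128359705. Its cover at day 0 was 93.0% and 84.5%. The day 1 libraries had 82.8% and 88.1% in control medium and 83.8% and 81.2% under restriction. The day 5 libraries had 55.4% and 48.4% in control medium and 80.6% and 81.2% under restriction. The restricted day 5 libraries lay close to the restricted day 1 libraries and did not overlap with the day 5 controls. The difference between the day 5 media was 29.0 ± 3.77 points (SE, limma adjusted p = 0.000475). Its size depended on the setting, from 15.3 points with peaks joined across 1 kb to 72.9 points with lists of equal covered length, and it was called in both. Against day 0 the restricted day 5 libraries differed by −7.79 points with an adjusted p of 0.122, and without the second day 0 library by −12.0 points, which was then called.

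Mcm5, at chr8:75109468-75128439, was the most fully covered member at day 0, with 94.9% and 95.6%. At day 1 its cover was 81.0% and 83.7% in control medium and 89.3% and 87.9% under restriction. At day 5 it was 23.3% and 18.5% in control medium and 44.3% and 48.6% under restriction. The restricted libraries were above the controls at both days, yet at day 5 they were far below day 0. The difference between the day 5 media was 25.6 ± 3.37 points (SE, limma adjusted p = 0.000484). With only peaks of a −log10 q of at least 3 it was 5.16 points and no longer called (limma adjusted p = 0.39).

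Mcm2, a ring subunit at chr6:88883474-88898780, had a cover of 90.4% and 92.2% at day 0. Its day 1 values were 76.3% and 81.1% in control medium and 74.8% and 65.3% under restriction. Its day 5 values were 50.8% and 44.1% in control medium and 56.3% and 56.6% under restriction. The restricted libraries were below the controls at day 1 and above them at day 5, without overlap on either day. The day 5 difference, 8.98 ± 4.15 points (SE), was not called (limma adjusted p = 0.112). It was called with peaks of a −log10 q of at least 3 (36.2 points, limma adjusted p = 0.00273). It was also called with WT lists shortened to equal covered length, at 43.2 points with a limma adjusted p of 0.000498.

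Mcm7 departed from the other ring subunits. Its body is short, 7.53 kb at chr5:138164583-138172111, and 4.58% of it is overlapped by Ap4m1 and 3 miRNA genes. Its cover was 80.0% and 74.6% at day 0, then 72.9% and 71.4% in control medium and 65.1% and 57.7% under restriction at day 1. At day 5 it was 64.8% and 67.5% in control medium and 62.3% and 65.8% under restriction. The values of the day 5 media overlapped. Their difference of −2.07 ± 3.76 points (SE) was not called (limma adjusted p = 0.691), and its sign flipped under centring of the libraries on the median gene.

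Mcm7 also carries 3 miRNA genes in its introns, whose mature sequences in RefSeq are shown because their hairpins lie in the part of the gene that kept its peaks. The seed, bases 2 to 8, is in capitals, and the first 2 share it. On GRCm38.p6 and the minus strand they are at chr5:138165787-138165807, chr5:138165574-138165596 and chr5:138165332-138165353.
miR-106b-5p: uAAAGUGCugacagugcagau
miR-93-5p: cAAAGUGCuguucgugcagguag
miR-25-3p: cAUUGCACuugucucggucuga

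All 3 hairpins were 100% inside peaks in all 10 WT libraries. In the KO lines they were fully inside a peak only in line 1 at day 5 in control medium, apart from the hairpin of miR-106b, which was also covered in line 1 at day 0. The peak over Mcm7 did not end with the gene: at day 5 it ran on for 1.95 to 2.07 kb past the end in all 4 WT libraries, which reaches into Cops6, whose body lies 0.598 kb away. Peaks alone do not tell apart the mark of Mcm7 from that of Cops6 there.

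Of the genes that act around the ring, Mcm10, Cdc6 and Orc1 kept the least cover of all members at day 5 in control medium, with means of 1.87%, 7.22% and 5.06%. Mcm10, a helicase-activating factor at chr2:4990724-5012791, had a cover of 87.3% and 88.0% at day 0. The day 1 libraries gave 68.9% and 63.2% in control medium and 79.7% and 79.1% under restriction. The day 5 libraries gave 0 and 3.74% in control medium and 14.4% and 4.35% under restriction. Every day 5 library was far below every earlier library. The loss by day 5 in control medium was −85.8 ± 4.47 points (SE, limma adjusted p = 3.86e-06), and the day 5 media differed by 7.51 ± 4.47 points, which was not called (limma adjusted p = 0.204). Leaving out 1 library moved that difference between 2.47 and 12.5 points, and centring on the median gene gave 24.2 points, which was called (limma adjusted p = 0.00457).

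Cdc6, the ATPase that loads the ring with CDT1, lies at chr11:98907709-98923942. Its cover was 93.9% and 91.4% at day 0. For day 1 the values were 63.4% and 79.4% in control medium and 68.3% and 53.2% under restriction. For day 5 they were 4.50% and 9.94% in control medium and 6.44% and 4.22% under restriction. The media overlapped at both days, and all 4 day 5 libraries were under 10%. The loss from day 0 to day 5 in control medium was −85.4 ± 6.52 points (SE, limma adjusted p = 3.01e-05). The day 5 difference of −1.89 points was not called (limma adjusted p = 0.84), and its sign flipped with stricter peaks, with centring and without the second day 5 control library.

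Cdt1, the partner of CDC6 in loading, has the shortest body, 5.12 kb at chr8:122568015-122573130. Its cover was 79.9% and 81.5% at day 0. At day 1 it was 77.8% and 72.3% in control medium and 67.4% and 65.3% under restriction. At day 5 it was 35.2% and 10.2% in control medium and 18.5% and 12.9% under restriction. The 2 day 5 control libraries disagreed more than those of any other member, and the restricted libraries lay between them. The day 5 difference of −6.97 ± 7.26 points (SE) was not called (limma adjusted p = 0.468). Without the first control library it was 5.53 points, and without the second it was −19.5 points and called (limma adjusted p = 0.0197), so its direction rests on a single library.

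Orc1, the origin-binding ATPase, has a body of 40.3 kb at chr4:108575705-108616030, of which 48.6% is overlapped by Prpf38a and the non-coding Gm12743. Its cover was 63.7% and 52.4% at day 0. Its day 1 cover was 31.2% and 43.3% in control medium and 54.9% and 45.4% under restriction. Its day 5 cover was 3.70% and 6.42% in control medium and 8.31% and 10.1% under restriction. The restricted libraries were above the controls at both days, without overlap. The day 5 difference of 4.16 ± 5.64 points (SE) was not called (limma adjusted p = 0.585). In the day 5 control libraries the first of 20 bins of the body was covered to 74.0% and 61.8%, and in library 1 no other bin held any cover. There a peak ran on for 4.54 and 4.50 kb before the start, over Prpf38a, itself covered to a mean of 80.7%.

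**Figure D2:**
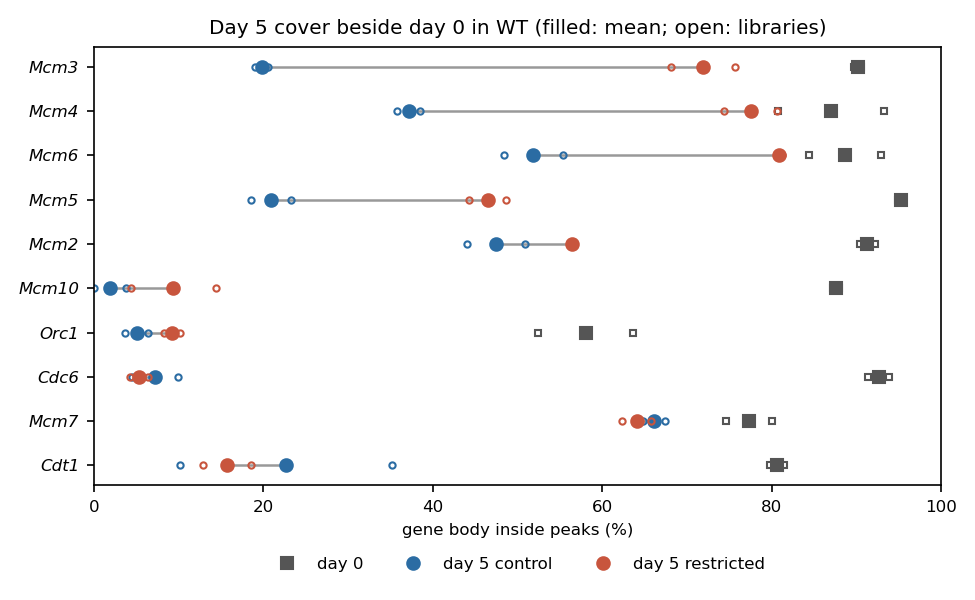
Day 5 cover of each member in WT beside its day 0 cover, in percent of the gene body inside peaks, ordered by the difference between the media. Filled marks are means of 2 libraries and small open marks the libraries; the 4 genes on top lie 25.6 to 52.1 points higher under restriction, and the 6 others differ by less than 9 points (for Mcm7, Cdc6 and Cdt1, at the bottom, the sign depends on the processing).

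In all, at day 5 restriction left 4 members with more cover than control medium and 0 with less. Among all tested genes 4.32% were called with more cover and 41.5% with less, and the median difference was −9.16 points, against 8.25 points for the members. This background turned with centring of the libraries on the median gene: of the 9514 tested genes 3757 then had more cover and 1395 less, the median was 7.52 points, and 9 members, all but Cdt1, were called with more cover. With lists of equal covered length 1285 had more and 1683 less, of 8329 tested, and 5 members had more cover. In 7 of the 10 members both restricted libraries were above both controls, which was so for 13.9% of all tested genes. In 0 members were both below, against 65.4% of all tested genes. The 4 that were higher, Mcm3, Mcm4, Mcm5 and Mcm6, are all ring subunits. The 6 others are the ring subunits Mcm2 and Mcm7 and the 4 genes that act around the ring. With peaks of a −log10 q of at least 3 the count was again 4, but Mcm2 was called and Mcm5 was not. Peaks at 1 time do not show whether cover was kept throughout or lost and regained.

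Cover lost in control medium but present under restriction can be put as a share of the control loss. That share was 81.1% for Mcm4, 78.8% for Mcm6, 74.0% for Mcm3 and 34.4% for Mcm5. It was 20.5% for Mcm2, 8.76% for Mcm10 and 7.85% for Orc1, and it was below 0 for Cdc6, Cdt1 and Mcm7. With peaks of a −log10 q of at least 3 it was 86.2% for Mcm6, 76.3% for Mcm4, 48.3% for Mcm2, 34.6% for Mcm3 and 5.58% for Mcm5, so the order of the members depends on the peak threshold. These shares use the day 5 libraries that define the sets, so they describe and test nothing. In means over 2 libraries, the 4 genes had a cover of 87.0% to 95.3% at day 0 and the 6 others 58.0% to 92.6%. At day 1 in control medium the means were 82.3% to 85.4% for the 4 and 37.3% to 78.7% for the 6, although single libraries overlapped. At day 1 under restriction the means overlapped, at 79.1% to 89.3% and 50.1% to 79.4%. Gene length did not separate the sets, with 13.5 to 28.1 kb for the 4 and 5.12 to 40.3 kb for the 6. E2F words stood before 2 of the 3 genes with a promoter entry that were higher, and before 3 of the 6 others.

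Measured from day 0 to day 5 under restriction, 8 members lost cover and 0 gained it, where 43.5% of all tested genes were called with less and 4.05% with more (4280 more and 1402 less of 9514 with libraries centred on the median gene). Mcm4 and Mcm6 were the members not called. With libraries centred on the median gene they turned to 9.62 and 11.3 points, and Mcm6 was then called higher (limma adjusted p = 0.0064). This comparison shares its day 0 libraries with the one in control medium, so the values are given side by side: the difference of Cdc6 was −87.3 points under restriction and −85.4 in control medium. In the same order it was −78.3 and −85.8 points for Mcm10, −65.0 and −58.0 for Cdt1, and −48.8 and −53.0 for Orc1. Both calls of Orc1 were lost with WT lists shortened to equal covered length, where the differences were −4.65 points under restriction (limma adjusted p = 0.314) and −7.27 in control medium (limma adjusted p = 0.162). For the ring subunits it was −48.8 and −74.4 points for Mcm5, −34.9 and −43.8 for Mcm2, and −18.3 and −70.4 for Mcm3. The calls of Mcm5 and Mcm2 held in every setting, but their sizes did not. Under restriction Mcm5 was at −87.3 points with peaks of a −log10 q of at least 3 and −29.7 with centring. Mcm2 was there at −15.8 points with centring, and in control medium at −82.0 with lists of equal covered length. Mcm6, at −36.8 points in control medium, ran from −20.9 with peaks joined across 1 kb to −82.0 with those lists. Under restriction Mcm3 was at −58.3 points with peaks of a −log10 q of at least 3, and at 0.764 points and not called with libraries centred on the median gene. Mcm7 had a difference of −13.2 points under restriction (limma adjusted p = 0.0193), a call that 6 alternative settings ended.

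At day 1 few members had passed the test. From day 0 to day 1 in control medium 1 member, Mcm10, was called lower (−21.6 ± 4.47 points, SE, limma adjusted p = 0.0289) and 0 higher, where 5.67% of all tested genes were called lower and 0.967% higher. Over all tested genes that balance turned with libraries centred on the median gene, to 108 lower and 227 higher, and with only the 4 libraries compared limma called 0 genes, while 1877 of 9395 had an unadjusted p under 0.05. The call of Mcm10 was lost without any 1 of the 4 libraries compared, with values of −18.7 to −24.5 points. Cdc6 (−21.2 points), Orc1 (−20.8), Mcm5 (−12.9) and Mcm2 (−12.6) were lower without passing, with limma adjusted p of 0.0573 to 0.108. The members' median was −9.11 points, and that of all tested genes −5.31 points.

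Between the day 1 media 1 member was called with more cover under restriction, again Mcm10 (13.3 ± 4.47 points, SE, limma adjusted p = 0.0451), and 0 with less. Among all tested genes 2.38% had more cover by this rule and 36% less, and with libraries centred on the median gene 3518 of 9514 had more and 1245 less. Mcm7 had −10.7 points and just missed the threshold (limma adjusted p = 0.0522). It was called lower in 4 alternative settings, with −10.7 to −14.5 points and limma adjusted p of 0.0257 to 0.0499. Leaving out any of the 4 day 1 libraries or either day 5 control library ended the call of Mcm10, with differences of 10.5 to 16.2 points. Peaks joined across 1 kb brought it to 3.85 points (limma adjusted p = 0.586), and peaks of a −log10 q of at least 3 to 31.4 points, still called. Both restricted libraries were above both controls for Mcm3, Mcm5, Mcm10 and Orc1, against 10.8% of all tested genes. Both were below for Mcm2, Mcm7 and Cdt1, against 59.6% of all tested genes.

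Whether the response to restriction differed between the days was tested directly. It was larger at day 5 for 3 members, Mcm3 (47.6 ± 4.66 points, SE, limma adjusted p = 0.000841), Mcm4 (45.6 ± 8.21 points, adjusted p = 0.0162) and Mcm6 (31.9 ± 5.33 points, adjusted p = 0.0118). It was smaller for 0 members, but with lists of equal covered length it was called smaller for Orc1 (−36.8 points, limma adjusted p = 0.00604). Over all tested genes 1.62% were called larger and 3.58% smaller, a balance that turned with peaks of a −log10 q of at least 3 (314 larger and 218 smaller) and with lists of equal covered length (342 and 245). Mcm5 differed by 19.3 ± 4.76 points, with an adjusted p of 0.0574. Without the second restricted day 5 library only 1 member was called, since Mcm4 and Mcm6 then missed the threshold at 42.5 points (limma adjusted p = 0.0744) and 31.6 points (limma adjusted p = 0.0561). The calls of Mcm4 and Mcm6 were lost in other settings as well, with limma adjusted p up to 0.0727 and 0.0547. Mcm3 was called in every setting, at 25.4 points with peaks of a −log10 q of at least 3.

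Myotube markers also differed between the media. At day 5, 8 of the 9 tested had less cover under restriction, with a median difference of −58.23 points, and 0 had more. Of all tested genes 41.5% had less (1395 of 9514 with libraries centred on the median gene). At day 1, 6 of the 9 had less and 0 more, with a median of −19.2 points. There 36% of all tested genes had less (1245 of 9514 with centring), and 0 members had less. Of the 5 tested myoblast markers, out of 6 listed, 4 had less cover at day 5. Among them was Myod1, at 72.6% in control medium and 0 under restriction. The part of this shift of the markers in the members' results was not tested.

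The way the peaks broke up was read along the gene body, in 3 parts of equal length from the start, for the 9 members whose strand the sources gave. At day 0 Mcm3 lay under 1 peak of 15.7 and 15.6 kb in the 2 libraries. At day 5 in control medium it held 8 and 7 separate peaks, the longest of 0.666 and 0.790 kb. Under restriction it held 3 and 5 peaks, the longest of 6.38 and 5.91 kb, so its peaks were fewer and its longest peaks longer than in control medium. Its parts were covered to 70.5%, 100% and 100% at day 0, to 6.09%, 28.3% and 25.1% at day 5 in control medium, and to 45.7%, 78.6% and 91.4% under restriction.

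Mcm6 and Mcm4 showed the same kind of long peak under restriction. In Mcm6 the longest peak at day 5 was 4.58 and 2.22 kb in control medium and 9.90 and 9.90 kb under restriction, and the number of peaks fell from 13 in both control libraries to 4 in both restricted ones. In Mcm4 the longest peak was 1.29 and 1.58 kb in control medium and 9.12 and 9.41 kb under restriction. Mcm5 did not follow them, since under restriction it held 11 and 9 peaks, none longer than 2.69 kb, against 6 and 7 peaks in control medium.

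Mcm2 kept its middle part at day 5 in both media, at 84.2% in control medium and 89.3% under restriction, while its first part was at 9.88% and 0. The last part was covered to 48.3% in control medium and 80.0% under restriction. In Mcm7 the last part was covered to 100% in both media and the first to 8.002% and 8.70%. For comparison, the mean over 7711 tested genes with a known strand in the first day 5 control library was 29.1% in the first part, 57.6% in the middle and 68.7% in the last. The first part was the least covered of the 3 in each of the 10 WT libraries. In control medium at day 5 the means of the first part over all genes were 29.1% and 26.2% in the 2 libraries. As means of both libraries all 9 members were below these, from 0 in Mcm10 to 24.7% in Mcm6. In the first library alone Mcm5 was above, at 30.5%. Under restriction the means over all genes were 15.2% and 15.6% in the 2 libraries. As means of both libraries Mcm3, Mcm5 and Mcm6 were above these, at 45.7%, 34.4% and 48.1%, and the 6 others below. In the second library alone Mcm7 was above, at 17.4%. These differences were not tested.

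**Figure D3:**
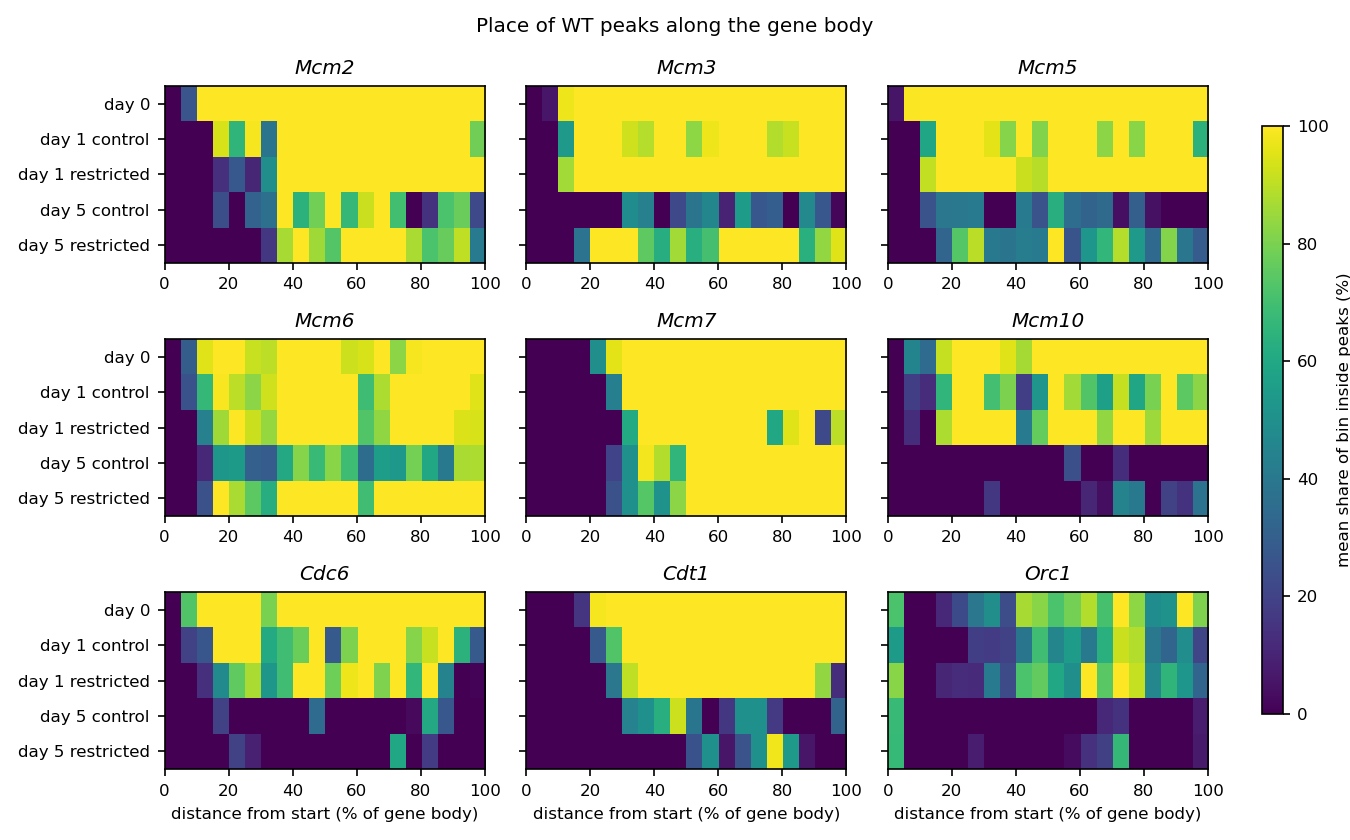
Place of the WT peaks along the body of the 9 members with a known strand, with distance from the start in percent of the body on the horizontal axis and the condition on the vertical axis. Colour is the mean share of each of 20 bins inside peaks over 2 libraries; Mcm3 and Mcm6 hold long blocks under restriction at day 5, Mcm7 keeps its distal part in all conditions, and Mcm10, Cdc6 and Cdt1 keep scattered pieces.

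The authors' fold enrichment ranks the peaks of a list by strength. The strongest peak on Mcm3 stood above 97.9% and 96.0% of the peaks of its list at day 0, above 78.4% and 67.5% at day 5 in control medium, and above 75.9% and 75.3% under restriction. The strongest peak on Cdc6 stood above 84.3% and 79.4% at day 0, above 0.832% and 21.2% at day 5 in control medium, and above 7.77% and 48.2% under restriction. On Mcm4 the values were 97.7% and 95.7%, 83.1% and 84.7%, and 92.4% and 89.9%. The lists differ in length, so these ranks describe each list and show no change between them.

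In the KO lines the licensing genes had less called mark than in WT. Over the 5 conditions all 10 members had more cover in WT, with differences from 31.9 points (Orc1) to 68.4 points (Mcm4), in an exact two-sided permutation test within condition. Adjusted p-values ran from 0.000341 to 0.00846. The test treats the KO libraries as separate units, although they are 5 libraries each of the same 2 lines, so these p-values do not measure the spread between lines. Of all tested genes 96.6% were called in this direction, and these genes were kept by their WT cover, so the count of members says nothing particular to them. Line 2 had 0 cover on all 10 members in all 5 libraries.

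Line 1 kept part of the mark and changed with the day. At day 0 its cover was 62.9% on Cdt1, 31.4% to 35.9% on Mcm2, Mcm3, Mcm4, Mcm6 and Mcm7, 20.4% on Mcm5, 8.40% on Cdc6, 2.06% on Mcm10 and 0 on Orc1. At day 1 in control medium it was between 0 and 27.2%, and at day 1 under restriction 9 members were at 0 and Mcm6 was at 0.821%. At day 5 in control medium the line had 71.5% on Mcm7, 65.2% on Mcm6 and 58.9% on Cdt1, and at most 3.02% on the 7 others. At day 5 under restriction it had 31.0% on Mcm6, 9.88% on Mcm7, 6.02% on Cdt1 and 0 on the 7 others.

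At day 5 in control medium Mcm6, Mcm7 and Cdt1 were thus above both WT libraries in line 1, which was so for 5.94% of all tested genes, while Mcm3 and Mcm5 were at 0. In each of the other 4 conditions 0 members were above both WT libraries, against 0.147% of all tested genes at day 0, 0.336% at day 1 in control medium, 0.021% at day 1 under restriction and 9.99% at day 5 under restriction. Where WT had more cover under restriction at day 5, on Mcm3, Mcm4, Mcm5 and Mcm6, line 1 under restriction had 0 on the first 3, and on Mcm6 31.0% against 65.2% in control medium. With 1 library per condition these differences in line 1 have no test. The call of Cdt1 in WT against KO depended on line 2, since with line 1 alone its exact permutation p was 0.0741 (BH-adjusted 0.0798) at a difference of 24.0 points.

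**Figure D4:**
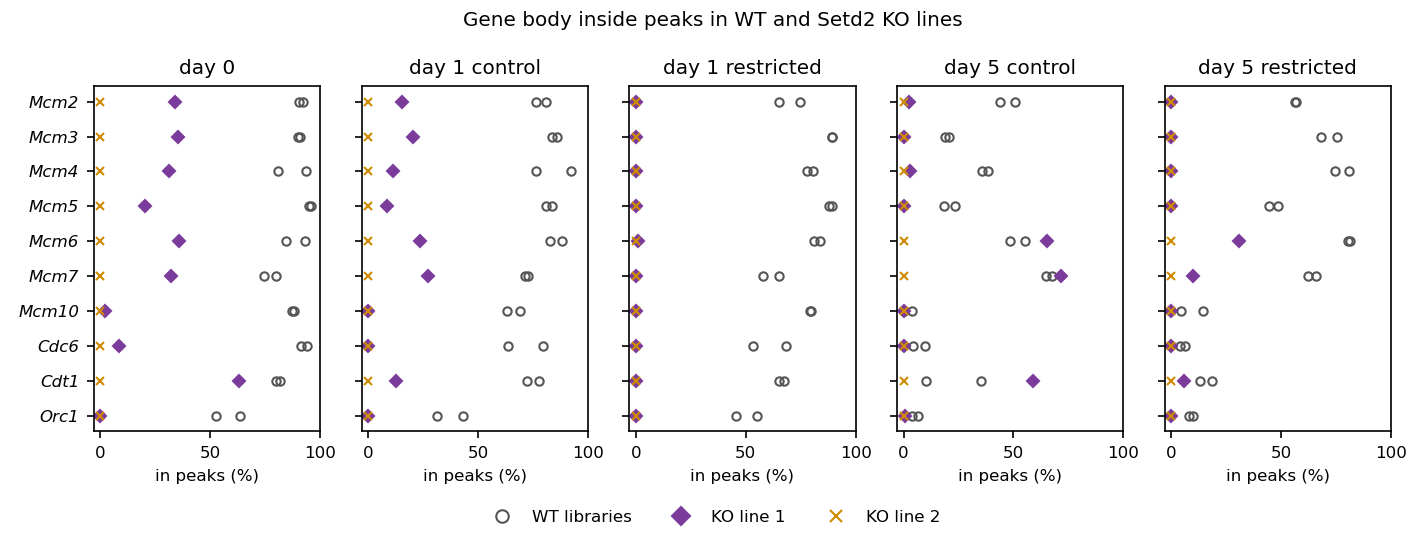
Cover of the members, in percent of the gene body inside peaks, in WT libraries and in the 2 lines labelled Setd2 KO, by condition. Circles are the 2 WT libraries, diamonds the single library of KO line 1 and crosses that of KO line 2; line 2 is at 0 throughout, and line 1 reaches 58.9% to 71.5% on Mcm6, Mcm7 and Cdt1 at day 5 in control medium.

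Among the members, profiles over the 10 WT libraries were nearest for Mcm4 and Mcm6, which differed by a mean of 5.75 points of cover, then for Mcm3 and Mcm5 (7.07 points) and for Mcm10 and Cdc6 (8.77 points). Orc1 was farthest from the rest, 17.1 points from its nearest member, Cdc6. The genes whose profile was most like the mean of the 10 members, by the smallest mean absolute difference over these libraries, were Tonsl (5.45 points), Ttf2 (5.78 points), Pygb (6.55 points), Jpt2 (6.59 points) and Cep89 (6.88 points).

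Other genes of DNA replication were read from lists set beside the members, to see how far they moved with them. Of 10 other ORC and MCM family genes and partners, 5 lost cover from day 0 to day 5 in control medium and 0 gained it, against 15.6% and 12.2% of all tested genes. At day 5 restriction left 1 with more cover, Orc2 (10.9 points, limma adjusted p = 0.0119), and 2 with less, against 4.32% and 41.5% of all tested genes. These 2 were Gmnn, the inhibitor of CDT1 (−17.4 points, adjusted p = 0.0329), and Mcmdc2 (−7.73 points, adjusted p = 0.00858).

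All 12 genes of origin firing lost cover from day 0 to day 5 in control medium, where 15.6% of all tested genes did. Restriction at day 5 left 0 with less cover, against 41.5% of all tested genes, and 2 with more, against 4.32%. These were Gins4 (20.7 points, limma adjusted p = 0.00187), part of the GINS complex of the active helicase, and Cdc7 (17.9 points, adjusted p = 0.0275), the kinase that phosphorylates the ring. Cdc45, which joins the ring and GINS in the active helicase, had means of 29.2% and 15.8% and was not called (adjusted p = 0.0998).

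Of 24 replisome genes tested out of 27 listed, 20 lost cover by day 5 in control medium and 0 gained it, against 15.6% and 12.2% of all tested genes. Restriction at day 5 left 3 with more cover (4.32% of all tested genes), the clamp loader subunit Rfc3 (28.5 points), the ligase Lig1 (21.5 points) and the polymerase subunit Pole (20.3 points). It left 2 with less (41.5% of all tested genes), Pola2 (−31.5 points) and the sliding clamp Pcna (−18.9 points). Adjusted p-values of these 5 genes in limma were 0.00271 to 0.0152.

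Regulators of the licensing genes were the last group. Of 17 tested genes of 18 listed in the E2F, RB and cyclin E group, 0 had more cover under restriction at day 5 and 9 had less, where 41.5% of all tested genes had less. Among the 9 were E2f2 (−36.9 points, limma adjusted p = 0.00018), Cdk2 (−36.0 points, adjusted p = 0.00189) and E2f4 (−31.2 points, adjusted p = 0.00624). From day 0 to day 5 in control medium 7 of them lost cover and 1 gained it, Rb1, which went from a mean of 7.08% to 54.9%. The median day 5 difference between the media was −8.41 points in this list, −3.77 in the other ORC and MCM genes, 0.661 in origin firing and 3.04 in the replisome, against 8.25 points for the 10 members and −9.16 points for all tested genes.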

How the data were processed

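The deposited files were 20 peak lists in a 9-column broad-peak layout, 1 per library. Per the submitters' processing notes the build was GRCm38. The peak caller, its control and the read filters are not given in the sources used here. The fold enrichment (a ratio), the −log10 p and −log10 q and the score of each peak were deposited by the authors; the fold ranked peaks within a list, the −log10 q filtered them, and the score and −log10 p were not used. The lowest −log10 q was about 1.00. Neither the input files nor a spike-in scaling entered the values here. Names inside the peak lists number the KO lines as replicates, whereas the labels, used here, name them as lines.

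Peaks were merged, and the percent of each RefSeq GRCm38.p6 gene body inside them was taken for protein-coding genes no shorter than 2 kb. Peaks over overlapping genes count for each. The 9514 genes whose mean WT cover reached 5% were fitted with limma 3.58.1 (R 4.3.3, trend and robust) on 10 WT libraries in 5 groups with a common spread; p-values are BH adjusted over these genes and called under 0.05. WT and KO were compared by an exact permutation test of 7776 arrangements within condition, whose smallest p is 0.000257. A member counts as higher under restriction when its day 5 contrast was called with more cover. All 10 members are named; other genes come from lists. The members and lists were chosen with earlier results of these data known. For 200 simulated sets of intervals the computed cover was compared with a count of single bases, and 0 sets differed. In simulations of 9514 genes, 200 were changed by 30 points. Of these limma recovered 67% between the day 5 media and 71% between the day 1 media. From day 0 to day 5 in control medium it recovered 70%. In the same order, 3.6%, 2.74% and 5.41% of its calls were false. A gene that was not called may thus have changed by 30 points. No simulation is given for the other contrasts or the permutation test.

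Alternatives were stricter peaks, lists of equal covered length (the strongest peaks by fold), centring of each library on its median gene, other filters, scales and models, bases free of other genes, peaks joined across 1 kb, and each WT library left out.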

Additional observations from a re-analysis of the deposited data

Results flagged for a closer look

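The response to restriction differed between day 5 and day 1 in WT for 3 members by a test of the difference itself (limma, BH-adjusted over all tested genes). For Mcm3 the effect on cover was 47.6 points larger at day 5, for Mcm4 45.6 points and for Mcm6 31.9 points. Of these, Mcm4 and Mcm6 lost their call in some settings, as given with the results.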

How the results depend on the processing

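All alternatives were run on the members in WT. From day 0 to day 5 in control medium 9 or 10 members were called lower in every setting (with lists of equal length Mcm7 was and Orc1 was not), and in restricted medium 7 to 9, or 6 with centring, where Mcm6 was called higher. Against the KO lines all 10 were called in every setting but KO line 1 alone, with 9. Centring each library on its median gene moved the median of all tested genes at day 5 from −9.16 to 7.52 points and the calls from 411 more and 3945 less to 3757 more and 1395 less. Centred, 9 members were called at day 5, 5 at day 1 and 5 in the difference between days, and 0 from day 0 to day 1.

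With centring the day 5 difference of Mcm7 turned to 14.6, of Cdc6 to 14.8 and of Cdt1 to 9.71 points, and the day 1 difference of Mcm2 to 6.498, Mcm4 10.01, Mcm6 12.3, Mcm7 4.44, Cdc6 4.50 and Cdt1 6.49 points. From day 0 to restricted day 5, Mcm3 turned to 0.764, Mcm4 to 9.62, Mcm6 to 11.3 and Mcm7 to 5.83 points. With peaks of a −log10 q of at least 3, Cdc6 turned to 1.22 and Cdt1 to 4.06 points at day 5, Mcm4 to 0.737, Mcm6 to 6.73 and Cdc6 to 0.391 at day 1, and Mcm5 to −1.74 in the difference between days. With lists of equal length, Cdt1 turned to 4.06 at day 5, and Mcm4 to 0.737, Mcm6 to 4.20 and Cdc6 to 12.3 at day 1. Leaving out 1 library moved Cdc6 at day 5 from −4.61 to 0.832, Cdt1 from −19.5 to 5.53 and Mcm4 at day 1 from −13.0 to 2.65 points. The cause of these reversals was not tested.

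The count of members called between the day 1 media, 1, was 2 with lists of equal length, a mean cover of at least 20%, bases free of other genes or limma without trend and robust settings (Mcm10 and Orc1 higher with equal length, otherwise Mcm10 higher and Mcm7 lower), and 0 with no filter, the replicate block, the arcsine scale or peaks joined across 1 kb. From day 0 to day 1 it was 0 with lists of equal length, only the libraries compared or joined peaks, and 2 without trend and robust settings. Left-out libraries gave 0 to 2 calls between the day 1 media (2 being Mcm2 and Mcm7, both lower, without restricted replicate 1), 0 to 1 from day 0 to day 1 and 1 to 3 in the difference between days. The mean number of members with at least 75% cover was 5 at restricted day 1, 0 at day 5 in control medium and 2 at restricted day 5, and in control medium it was 4.5 at 25% cover and 1 with stricter peaks.

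Replicate numbers do not pair the libraries: deviations of same-numbered libraries correlated at −0.439 to 0.0614 across WT groups. With the replicate number as a block 4 members were called at day 5, and the other counts were those given, apart from day 1. Depth is unknown, so cover that fell below the calling threshold cannot be told from absent mark.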

Other observations

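Values of some genes next to the members at day 5 in WT follow (means over 2 libraries, control medium first, no test). Beside Mcm7, itself at 66.1% and 64.1%, Taf6 had 56.7% and 63.6%. Ap4m1, which overlaps Mcm7, had 76.4% and 71.6%. Prkdc, beside Mcm4, had a cover of 10.5% and 26.0%. Dars, before Mcm6, had 89.2% and 58.8%, and Lct, after it, 0 and 1.08%. Il17f and Paqr8, the neighbours of Mcm3, had 0 and 0, and 2.71% and 4.15%. Hmox1, the heme oxygenase gene before Mcm5, had 75.1% and 74.7%. Hmox1 was also covered in KO line 1, to 70.0% at day 0 and to 85.1% and 74.6% at day 5 in the 2 media, while Mcm5 had 20.4% at day 0 and 0 in both media at day 5.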
